A study of Mus musculus with 6 samples.

Results

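The actin filament system of mouse thymocytes was described through 53 genes, chosen by name: the cytoplasmic actins, myosin II and its kinases, the Arp2/3 complex with its WASP and WAVE activators, formins, proteins that bind actin monomers, cap, sever or crosslink filaments, ERM linkers and vimentin. These genes were chosen with earlier results of these data known. Their symbols matched 54 of the 55536 rows of the count table. The symbol Myl12b stands for 2 gene models, and the second of these (ENSMUSG00000117098) joins exons of Myl12a and Myl12b. It had 0 counts in every library, which by counting error alone allows up to 3 counts. Of its exon bases 38.5% are shared with Myl12a and 61.5% with the first Myl12b model, on the same strand. How reads on shared exons were counted was not given, so the 0 counts do not measure its level. The other 53 rows passed the filter on low counts and were tested among 18690 genes.

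Each library came from the thymus of 1 mouse, with 3 wildtype mice (Il3ra+/+) and 3 mice deficient in the alpha chain of the interleukin-3 receptor (Il3ra-/-), all in steady state, and the labels name no treatment. Strain, age and the design of the deleted allele were not given in the sources used here. At issue is how the genotypes differ, and mechanobiology is one of the themes in the series title. Levels are in CPM, counts scaled to equal library sizes that were adjusted by the trimmed mean of M values (TMM), and errors are SD over 3 libraries per genotype.

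Library totals were 55747682 to 82684219 counts, and the 53 genes took 1.76% to 1.98% of the counts of a library. Il3ra, the targeted gene, had 465, 376 and 399 counts in wildtype replicates 1 to 3 and 481, 673 and 514 in the replicates labelled knockout, so its counts, summed over the whole gene, do not check the labels. Xist, the RNA of the inactive X chromosome, exceeded 1000 CPM in replicate 1 of each genotype and stayed under 1 CPM in the other 4 libraries. The 11 listed thymocyte genes (Cd3d, Cd3e, Cd3g, Cd247, Cd4, Cd8a, Cd8b1, Ptcra, Rag1, Rag2 and Lck) were all detected and summed to 10792 to 12135 CPM in wildtype and 9297 to 9868 CPM in the labelled knockout. All 10 listed macrophage markers had counts and summed to 87.3 to 119.6 CPM and 69.0 to 223 CPM, and the 7 neutrophil markers, also all with counts, to 28.5 to 89.3 CPM and 30.7 to 363 CPM, highest in labelled knockout replicate 3. The 12 cell division genes summed to 2272 to 2975 CPM in wildtype and 2990 to 4347 CPM in the labelled knockout. In such bulk libraries fewer cells of a type and less RNA per cell cannot be told apart.

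Actin monomers assemble into filaments that push the cell membrane, hold the immune synapse and, with myosin II, contract. The Arp2/3 complex starts branched networks when WASP or the WAVE complex activates it, formins start and lengthen unbranched filaments, and cofilin takes old filaments apart while profilin and thymosins hold the monomer pool. Lymphocytes rely on this machinery to crawl, to squeeze through tissue and to signal from the antigen receptor, and loss of WASP causes the immune deficiency Wiskott-Aldrich syndrome.

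None of the 53 genes differed between genotypes at an adjusted p under 0.05 (0 called, also by DESeq2 and limma-voom; edgeR's quasi-likelihood test, Benjamini-Hochberg adjustment over 18690 genes, of which 17 or 0.0910% were called), and the smallest adjusted p was 0.211. At an unadjusted p under 0.05 stood 6 of the 53 genes by edgeR, or 11.3%, against 14.6% of all tested genes, and 7 by DESeq2, against 14.8%. All 6 had lower means in the labelled knockout, where the share of all genes was 6.60%, and 0 had higher means, where it was 8.01%. In 10 genes, or 18.9%, every labelled knockout library lay below every wildtype library, and in 0 above. Over all tested genes the genotypes were apart in 20.3%, with 9.38% lower and 10.9% higher. Of the 53 genes 39 were fitted lower and 14 higher, with a median log2 fold of -0.07 against 0.01 over all tested genes. The folds were small, from 0.800 to 1.28, and the 95% interval of the fold lay within 1.5 times either way for 50 of the 53 genes, against 48.9% of all tested genes. In 8 genes the interval lay within 1.2 times either way, against 1068 of the 18690 tested genes. The width of an interval also depends on the counts of a gene, and these shares were not matched for level. Of the 53 genes 52 reached 1 CPM in at least 3 libraries, as did 14016 genes in all.

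**Figure D1:**
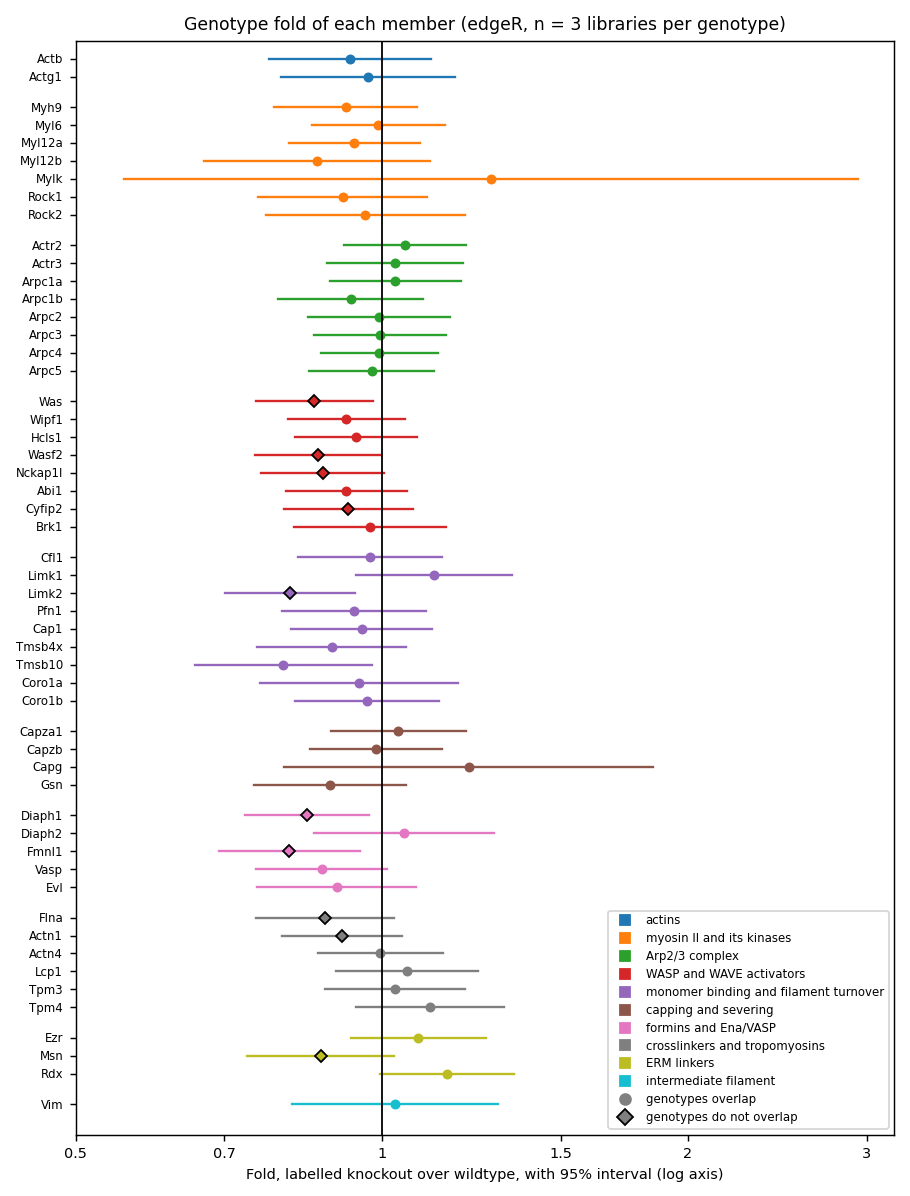
Genotype fold of each of the 53 tested genes (horizontal log axis, labelled knockout over wildtype) with its 95% interval from edgeR, n = 3 libraries per genotype; colours give the role and diamonds mark the 10 genes whose genotypes did not overlap. All 10 diamonds lie left of 1, and the widest interval is that of Mylk.

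The median log2 fold of the 53 genes changed with the libraries kept. It was -0.07 in all 6 libraries, and -0.03 without replicate 1 of wildtype or without that of the labelled knockout. Without wildtype replicate 2 it was -0.10. In replicates 2 and 3 only, it was 0.01 against 0.02 over all genes. There the median was -0.16 for the WASP and WAVE activators and -0.15 for formins and Ena/VASP. It was 0.08 for the actins and 0.03 for monomer binding and filament turnover. An unadjusted p under 0.05 was reached there by 8 genes, where 27.2% of all genes did so. On the lower side were 7 and on the higher 1, against 12.9% and 14.2% of all genes. Leaving out wildtype replicate 2 or labelled knockout replicate 3 left 1 gene each at that level, Tmsb10 in the former and Limk2 in the latter, where 6.84% and 9.13% of all genes were. Leaving out labelled knockout replicate 1 left 2, where 18.6% of all genes were. With high or low Xist as a covariate 4 genes were at that level, Diaph1, Fmnl1, Limk2 and Was, against 13.3% of all genes. Xist was high only in replicate 1 of each genotype, so this covariate cannot be told apart from those replicates.

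**Figure D2:**
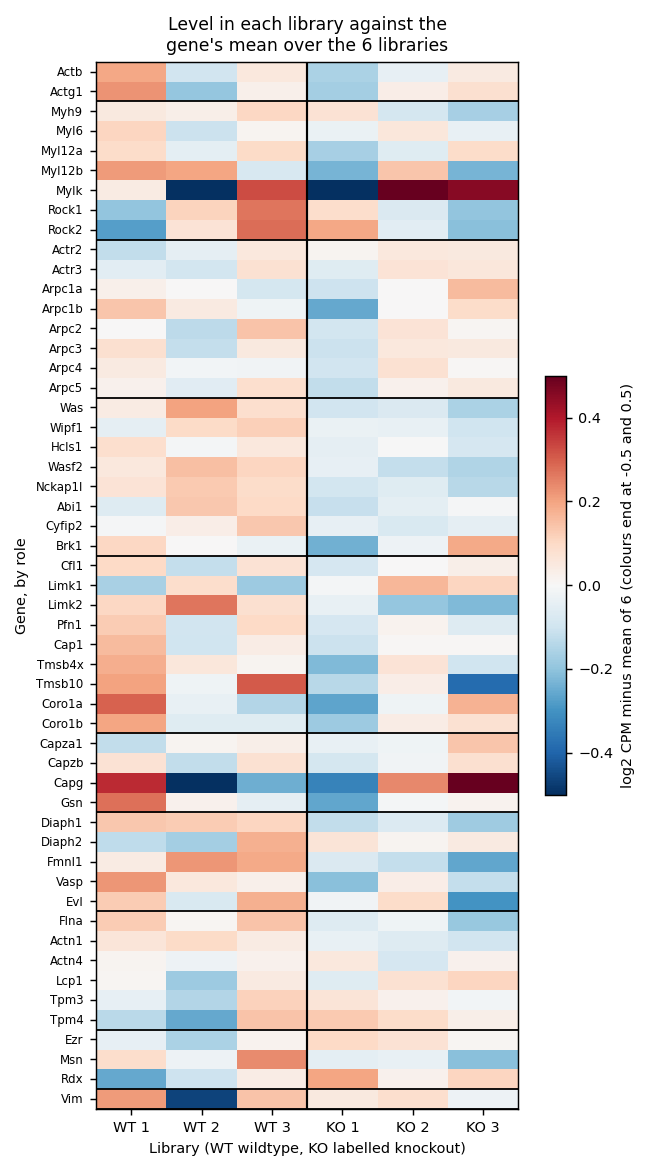
Level of each of the 53 genes (rows, grouped by role) in the 6 libraries (columns), as log2 CPM minus the gene's mean over the 6 libraries, with colours ending at -0.5 and 0.5. The rows of Was, Wasf2, Nckap1l, Limk2, Diaph1 and Fmnl1 are red in all wildtype and blue in all labelled knockout libraries, while most rows of the Arp2/3 complex change sign within a genotype.

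Actb, the main cytoplasmic actin (ENSMUSG00000029580, chromosome 5, 142903115 to 142906754, minus strand on GRCm38), was the most abundant of the 53 transcripts per length of merged exons. It reached 1073 ± 108 CPM per kilobase in wildtype and 998 ± 69.8 in the labelled knockout. Its CPM were 3166, 2585 and 2871 in wildtype replicates 1 to 3 and 2480.2, 2688 and 2853 in the labelled knockout. Labelled knockout replicate 1 was the lowest of the 6 libraries and the other 2 lay within the wildtype range, and the fold of 0.930 (95% interval 0.774 to 1.12) did not pass (edgeR, adjusted p = 0.73). Actg1, the second cytoplasmic actin, had 1131, 847 and 985 CPM in wildtype against 859.5, 988 and 1021 in the labelled knockout, and its genotypes overlapped (fold 0.968, interval 0.795 to 1.18). In both actins wildtype replicate 1 was the highest of the 6 libraries.

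Serum response factor, which binds the sequence called the CArG box, is a known activator of actin genes, so promoters of the 53 genes were searched for this box within the stretch from 250 bases before to 50 after each start in RefSeq (GRCm38.p6). Of 64 promoters matched to 48 of the genes, 3 held it (4.69%), against 535 of 32851 promoters of all genes (1.63%). Promoters of Actb, Coro1b, Diaph1, Rock1 and Nckap1l were not analysed here. The 3 are shown because they held the box in this window, each as the 250 bases before its start, 5′ to 3′ on the strand of the gene, with the box in capitals.
Actg1 (chr11:120348496-120348745, minus strand): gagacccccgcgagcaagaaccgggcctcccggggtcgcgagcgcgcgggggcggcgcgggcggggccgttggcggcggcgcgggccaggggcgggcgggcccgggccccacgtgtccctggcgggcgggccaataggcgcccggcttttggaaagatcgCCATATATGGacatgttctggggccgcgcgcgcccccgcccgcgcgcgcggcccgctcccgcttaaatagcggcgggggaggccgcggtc
Myl6 (chr10:128493010-128493259, minus strand): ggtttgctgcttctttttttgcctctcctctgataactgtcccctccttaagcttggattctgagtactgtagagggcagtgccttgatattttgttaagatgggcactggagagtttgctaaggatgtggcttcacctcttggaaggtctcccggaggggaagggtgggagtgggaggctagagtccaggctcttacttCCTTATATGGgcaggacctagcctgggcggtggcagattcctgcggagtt
Arpc4 (chr6:113377863-113378112, plus strand): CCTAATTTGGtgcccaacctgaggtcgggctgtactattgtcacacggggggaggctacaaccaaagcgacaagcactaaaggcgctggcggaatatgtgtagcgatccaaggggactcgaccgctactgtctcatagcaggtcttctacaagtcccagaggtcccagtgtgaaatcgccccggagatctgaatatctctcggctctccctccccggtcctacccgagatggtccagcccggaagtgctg
The box begins 90 bases before the start in Actg1, 50 in Myl6 and 250 in Arpc4. A match is a description of these letters and not of binding, and the folds of the 3 genes were 0.968, 0.992 and 0.994.

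**Figure D3:**
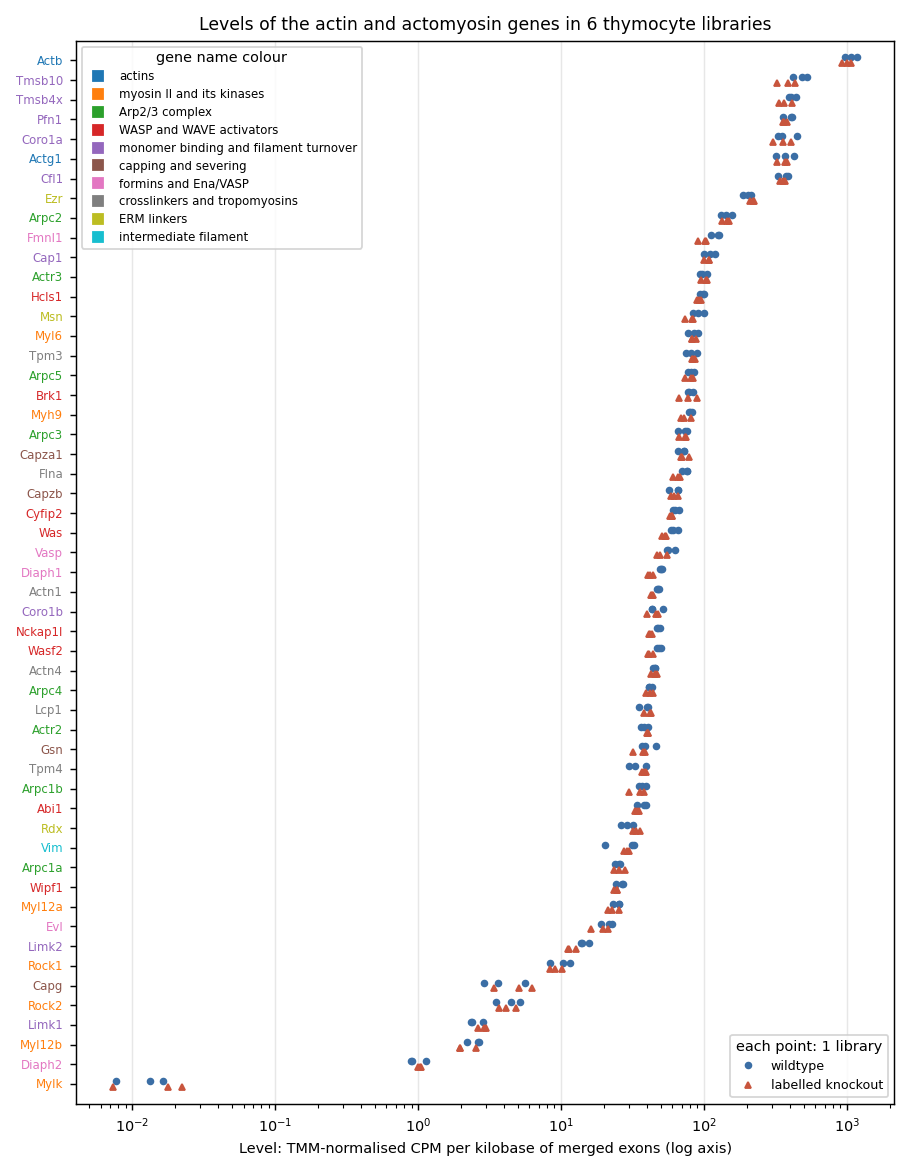
Level of each of the 53 genes per library in CPM per kilobase of merged exons (horizontal log axis), ordered by the mean over 6 libraries; circles are wildtype and triangles labelled knockout. Actb lies highest near 1000, 6 more genes average above 300, and Mylk lies lowest, under 0.03.

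Myosin II genes were carried by the nonmuscle heavy chain Myh9 and the essential light chain Myl6. Myh9 had 1040.1 ± 28.3 CPM in wildtype against 958 ± 81.3 in the labelled knockout, a fold of 0.921 (interval 0.783 to 1.08). Myl6, highest of this role per length at 84.5 ± 6.37 and 83.8 ± 3.17 CPM per kilobase, had 289, 248 and 271 CPM in wildtype against 261, 279 and 261 in the labelled knockout, which overlapped. The regulatory light chain Myl12a, through which contraction is switched on, had 85.4, 77.6 and 85.6 CPM in wildtype against 71.4, 76.8 and 85.3 in the labelled knockout. Its neighbour Myl12b on chromosome 17 encodes a near-identical chain. Myl12b was listed at 7.40, 7.32 and 6.05 CPM and 5.43, 7.03 and 5.43 CPM, an order of magnitude under Myl12a. Its level is uncertain, because 26.7% of its exon bases also belong to the second Myl12b model and its transcripts match Myl12a at 97.2% identity over 351 bases.

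The kinases Rock1 and Rock2, which raise myosin activity, ordered the libraries alike within each genotype. Rock1 had 152, 188 and 209 CPM in wildtype replicates 1 to 3 and 185, 165 and 152 in the labelled knockout. Rock2 had 48.9, 62.1 and 71.9 CPM and 67.8, 57.1 and 51.2 CPM. In both, wildtype replicate 3 was the highest and wildtype replicate 1 the lowest of the wildtype libraries, labelled knockout replicate 1 was the highest and replicate 3 the lowest of theirs, and the genotypes overlapped (folds 0.915 and 0.963). In replicates 2 and 3 only, both had an unadjusted p under 0.05 on the lower side and neither passed the adjusted threshold. Mylk, the light chain kinase best known from smooth muscle, was near the limit of detection at 9, 5 and 12 counts in wildtype and 5, 21 and 14 in the labelled knockout, and its fold of 1.28 has an interval of 0.557 to 2.94. Of the 7 tested genes of myosin II and its kinases 6 were fitted lower (median log2 fold -0.09). At an unadjusted p under 0.05 were 0 of them, against 14.6% of all tested genes.

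The Arp2/3 complex, which nucleates branched filaments, was the most even of the larger roles. All 8 of its genes, among them 2 alternative forms of the Arpc1 subunit, overlapped between genotypes, where 20.3% of all tested genes did not. Of the 8, 3 were fitted higher and 5 lower, and their log2 folds spanned only -0.10 to 0.08 with a median of -0.01. Their summed level was 1606 to 1756 CPM in wildtype libraries and 1579 to 1744 CPM in labelled knockout libraries. The 95% interval lay within 1.2 times either way for 5 of the 8. Arpc2, the subunit of highest level per length (144 ± 13.7 and 143 ± 7.87 CPM per kilobase), had 292, 266 and 322 CPM in wildtype against 274, 306 and 294 in the labelled knockout. Actr3, an actin-related core subunit, had 455 ± 27.6 and 469 ± 23.2 CPM, and its partner Actr2 199 ± 12.2 and 210.0 ± 3.15 CPM. Arpc1b, the form of the Arpc1 subunit that blood cells depend on, had 202, 189 and 180.0 CPM in wildtype against 153, 183 and 195 in the labelled knockout, with labelled knockout replicate 1 the lowest of all 6. The alternative form Arpc1a had 66.0, 65.1 and 61.0 CPM and 60.5, 65.0 and 72.4 CPM. Arpc3, Arpc4 and Arpc5, the small subunits, had folds of 0.996, 0.994 and 0.978.

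Activators of the Arp2/3 complex were all 8 fitted lower, with a median log2 fold of -0.12, and 4 of them did not overlap between genotypes, all on the lower side, where 9.38% of all tested genes stood. Summed over the 8, the level was 1774.5 to 1858 CPM in wildtype libraries and 1646 to 1665 CPM in labelled knockout libraries, which did not overlap either. None passed the adjusted threshold, so these are levels in 6 libraries and not called differences. Was, the haematopoietic activator WASP (ENSMUSG00000031165, chromosome X, 8081453 to 8090498, minus strand), had 140.3, 157 and 145 CPM in wildtype replicates 1 to 3 and 127, 129.6 and 122 in the labelled knockout. Every labelled knockout library lay under the lowest wildtype library (fold 0.858, interval 0.752 to 0.979; edgeR, unadjusted p = 0.0268, adjusted p = 0.28). Wasf2, the WAVE protein of lymphocytes, had 292, 313 and 303 CPM and 273, 259 and 254 CPM, again without overlap (fold 0.866, interval 0.751 to 0.998; edgeR, unadjusted p = 0.0478, adjusted p = 0.336). Nckap1l, the haematopoietic scaffold of the WAVE complex also known as Hem1, had 286 ± 6.01 and 250.1 ± 6.58 CPM and Cyfip2, which links the complex to Rac, 453 ± 23.0 and 419 ± 5.50 CPM. These completed the 4 without overlap, at adjusted p = 0.359 and 0.639 by edgeR.

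The remaining activators overlapped. Hcls1, the haematopoietic relative of cortactin and the highest of this role per length (97.9 ± 3.22 and 92.3 ± 2.61 CPM per kilobase), had 254, 238 and 249 CPM in wildtype against 233, 239.8 and 227 in the labelled knockout. Wipf1, the partner that stabilises WASP, had a fold of 0.923, and the WAVE subunits Abi1 and Brk1 had folds of 0.923 and 0.973. The spread of Brk1 was larger in the labelled knockout, at 85.3 ± 12.6 CPM against 87.6 ± 4.37 in wildtype. In replicates 2 and 3 only, the median log2 fold of the 8 activators was -0.16.

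**Figure D4:**
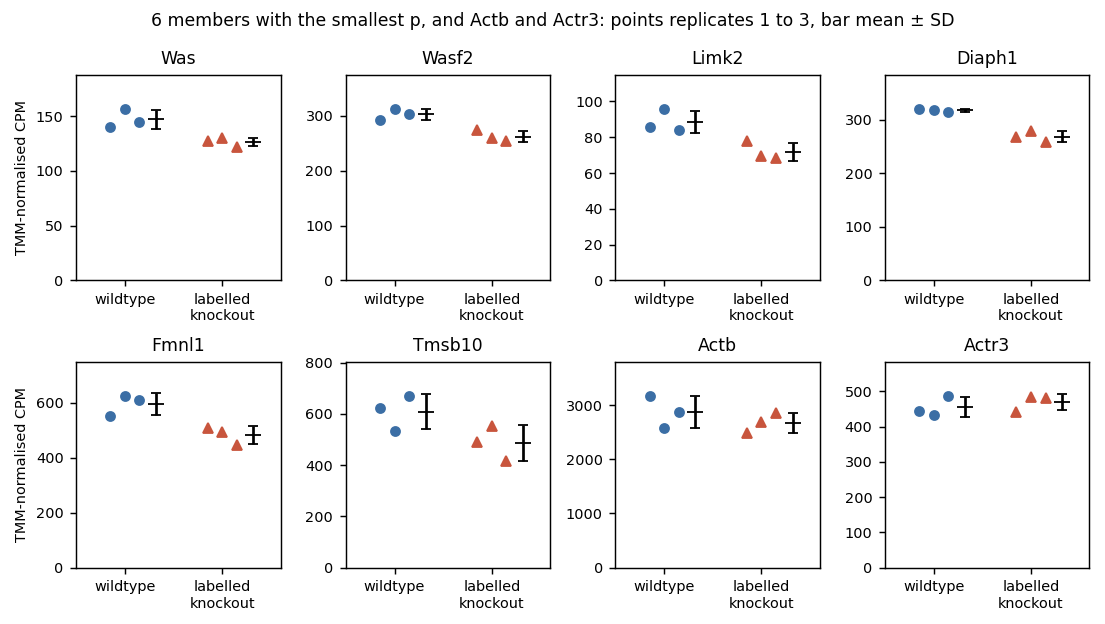
TMM-normalised CPM (vertical axes start at 0) of the 6 genes of smallest p and, for scale, Actb and Actr3, in wildtype (circles) and labelled knockout (triangles) replicates 1 to 3, with bars for the mean ± SD, n = 3. Was, Wasf2, Limk2, Diaph1 and Fmnl1 do not overlap between genotypes, and Tmsb10, Actb and Actr3 do.

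Among genes of monomer binding and filament turnover, Limk2 had the smallest p of all 53. Limk2 (ENSMUSG00000020451, chromosome 11, 3344256 to 3409189, minus strand) encodes a LIM kinase, which switches cofilin off by phosphorylation. Its CPM were 85.7, 95.9 and 84.2 in wildtype replicates 1 to 3 and 77.7, 69.7 and 68.3 in the labelled knockout. The libraries did not overlap, and the fold was 0.812 (interval 0.701 to 0.940; edgeR, unadjusted p = 0.0095, adjusted p = 0.211). Limk1, the related kinase, was several times scarcer per length and had 17.1, 20.3 and 16.8 CPM in wildtype against 18.9, 21.4 and 20.6 in the labelled knockout, with overlap and a fold of 1.13. The target Cfl1, cofilin, had 1037 ± 83.4 and 1009.6 ± 41.0 CPM (fold 0.974, interval 0.826 to 1.15).

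The thymosins sequester actin monomers, and Tmsb10 was the highest of this role per length (477 ± 54.0 and 381 ± 54.5 CPM per kilobase). Tmsb10 (ENSMUSG00000079523, chromosome 6, 72957347 to 72958748, minus strand) had 622, 534 and 669 CPM in wildtype against 491, 554 and 415 in the labelled knockout. Labelled knockout replicate 2 lay above wildtype replicate 2, so the genotypes overlapped, although the fold of 0.800 was the lowest of the 53 (interval 0.655 to 0.977; edgeR, unadjusted p = 0.0318, adjusted p = 0.293). Tmsb4x, on the X chromosome, had 609, 558 and 541 CPM and 461, 562 and 501 CPM (fold 0.892). Pfn1, profilin, which feeds monomers to growing ends, had 942 ± 77.2 and 885 ± 33.5 CPM, and Cap1, which helps cofilin recycle monomers, 385 ± 34.2 and 368 ± 16.7 CPM. Coro1a, the coronin that T cells need to leave the thymus, ranged widely within each genotype, at 1241, 986 and 915 CPM in wildtype against 843, 996 and 1141 in the labelled knockout. Coro1b, its more widely expressed relative, had 166, 138 and 138 CPM and 127, 148 and 152 CPM. Of the 9 genes of this role 8 were fitted lower (median log2 fold -0.08). The 2 genes Limk2 and Tmsb10 had an unadjusted p under 0.05, both lower, or 22.2% of the role against 6.60% of all tested genes.

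Capping protein genes, whose products block filament ends, overlapped in full. Capza1, the alpha subunit and the highest of this role per length (70.2 ± 4.04 and 72.9 ± 5.03 CPM per kilobase), had 248, 273 and 276 CPM in wildtype against 263, 266 and 298 in the labelled knockout, and the beta subunit Capzb had a fold of 0.987. Gsn, the severing protein gelsolin, had 145, 122 and 116 CPM and 99.9, 119 and 121 CPM (fold 0.888, interval 0.748 to 1.05). Capg, a gelsolin relative abundant in macrophages, had the widest relative spread after Mylk, at 14.1, 7.32 and 9.16 CPM in wildtype against 8.62, 12.8 and 15.7 in the labelled knockout. In replicates 2 and 3 only, Capg was the 1 gene of the 53 that was called, higher in the labelled knockout with a log2 fold of 0.79 (edgeR, adjusted p = 0.0384, where 3.98% of 19127 genes were called). The 10 macrophage markers summed to 119.6, 89.2 and 87.3 CPM in wildtype replicates 1 to 3. Their labelled knockout sums were 69.0, 112 and 223 CPM, in the same order of libraries as Capg. Within wildtype Capg was lowest in replicate 2 and the sum of these markers in replicate 3. Lyz2 was the largest part of the sum in every library. It had 51.8, 43.7 and 39.8 CPM in wildtype and 30.033, 44.851 and 143.89 in the labelled knockout. Singly, Adgre1, C1qa, Csf1r, Cd68 and Timd4 were lowest in wildtype replicate 2, as was Capg. C1qb, C1qc, Mertk, Lyz2 and Marco were lowest in wildtype replicate 3. The labelled knockout order was shared by dendritic cell (20.4, 43.2 and 73.1 CPM) and B cell markers (26.2, 45.1 and 53.6 CPM). It also held for the sums of thymic epithelium (18.3, 23.4 and 24.2 CPM) and erythroid markers (3.37, 22.95 and 34.2 CPM). For fibroblast markers replicates 2 and 3 were almost equal, at 12.285 and 12.331 CPM. The endothelium sum (117, 122 and 123 CPM) was mostly Pecam1, which by itself had another order (115, 120 and 118 CPM). The order did not hold for neutrophil, T cell or cell division genes. None of the 10 macrophage markers was at 0 in all libraries, and the part of macrophage RNA in Capg was not tested.

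The 2 formins of highest level per length, Fmnl1 and Diaph1, were lower in all labelled knockout libraries than in any wildtype library, as were 9.38% of all tested genes. Fmnl1, a formin of leukocytes (ENSMUSG00000055805, chromosome 11, 103171107 to 103198901, plus strand), had 552, 624 and 612 CPM in wildtype replicates 1 to 3 and 509, 494 and 447 in the labelled knockout (fold 0.811, interval 0.692 to 0.951; edgeR, unadjusted p = 0.0147, adjusted p = 0.238). Diaph1, the formin mDia1 (ENSMUSG00000024456, chromosome 18), had 320.1, 318 and 314 CPM and 268, 278 and 258 CPM (fold 0.844, interval 0.734 to 0.972; edgeR, unadjusted p = 0.0226, adjusted p = 0.265). Diaph2, a scarce relative on the X chromosome, overlapped at 10.5, 10.2 and 13.0 CPM and 12.0, 11.6 and 11.9 CPM. Vasp and Evl, which shield growing ends from capping, had folds of 0.872 and 0.903 with overlapping genotypes. Over the 5 genes 4 were fitted lower, with a median log2 fold of -0.20, the lowest of the 10 roles. Their summed level was 1111 to 1154.5 CPM in wildtype libraries and 895 to 990 CPM in labelled knockout libraries, without overlap.

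Crosslinkers and tropomyosins divided in direction, 3 fitted lower and 3 higher (median log2 fold 0.02). Flna, filamin A, which joins filaments into networks, had 712, 657 and 719 CPM in wildtype against 623, 641 and 571 in the labelled knockout. Actn1, an alpha-actinin that bundles filaments, had 263, 269 and 259 CPM and 245, 241 and 236 CPM. Both were without overlap on the lower side, as were 9.38% of all tested genes. Neither reached an unadjusted p of 0.05 (edgeR, adjusted p = 0.435 and 0.532). The second alpha-actinin Actn4 overlapped at 278, 270.4 and 279 CPM and 286, 259.7 and 279 CPM (fold 0.997), and the leukocyte bundler Lcp1 had 367 ± 30.1 and 388 ± 23.6 CPM. Tropomyosins lie along filaments and govern which proteins reach them. Tpm3, the highest of this role per length (82.0 ± 7.50 and 84.5 ± 2.29 CPM per kilobase), had 492, 457 and 548 CPM and 528, 514 and 501 CPM, and Tpm4 had 72.0, 66.3 and 87.3 CPM and 86.6, 84.4 and 80.8 CPM. Both overlapped, with folds of 1.03 and 1.12.

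The ERM proteins tie filaments to the membrane, and their 3 genes did not share a direction. Ezr, ezrin, the highest per length (202 ± 12.4 and 219 ± 7.01 CPM per kilobase), had 673, 619 and 699 CPM in wildtype against 740.3, 727 and 696 in the labelled knockout. Rdx, radixin, had 122, 135 and 149 CPM and 166, 148 and 156 CPM, with labelled knockout replicate 2 inside the wildtype range (fold 1.16, interval 0.996 to 1.35; edgeR, adjusted p = 0.359). Msn, moesin, abundant in lymphocytes, had 582 ± 53.6 and 507 ± 33.4 CPM without overlap on the lower side (fold 0.871; adjusted p = 0.434 by edgeR). Vim, the intermediate filament vimentin, overlapped at 155, 96.9 and 148 CPM and 138, 142 and 131 CPM, and wildtype replicate 2 was the lowest of the 6 libraries.

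Ratios of related genes within a library do not depend on library scaling, and 10 pairs were compared. The ratio of Limk1 to Limk2 counts was 0.199, 0.212 and 0.200 in wildtype replicates 1 to 3 and 0.244, 0.308 and 0.301 in the labelled knockout. Every labelled knockout ratio was higher, by a factor of 1.39 on average (two-sided exact permutation test, p = 0.1, the smallest that 3 against 3 libraries allow; Benjamini-Hochberg adjusted p = 0.25 over the 10 pairs). Arpc1a to Arpc1b was 0.328, 0.345 and 0.339 in wildtype and 0.395, 0.354 and 0.372 in the labelled knockout, also higher in every labelled knockout library. Diaph1 to Diaph2 was 30.4, 31.1 and 24.1 and 22.2, 23.9 and 21.7, lower in every labelled knockout library, as was Tpm3 to Tpm4 at 6.83, 6.90 and 6.28 and 6.10, 6.09 and 6.20. These 3 pairs had the same exact and adjusted p as the LIM kinases, so none of the 4 passed. The other 6 ratios overlapped. Among them Actb to Actg1 was 2.80, 3.05 and 2.92 in wildtype and 2.89, 2.72 and 2.79 in the labelled knockout, and Coro1a to Coro1b 7.50, 7.12 and 6.61 and 6.62, 6.73 and 7.50. The beta thymosins Tmsb4x and Tmsb10 stood at 0.978, 1.04 and 0.808 and 0.938, 1.01 and 1.21.

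**Figure D5:**
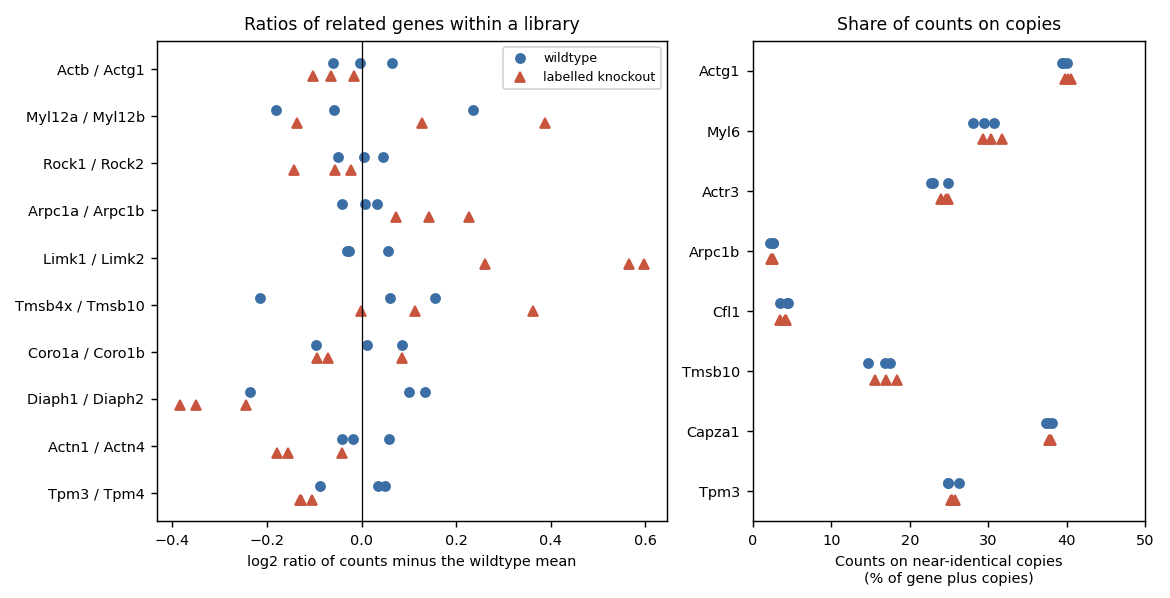
Left, log2 ratio of counts of 10 pairs of related genes in each library minus the wildtype mean of that pair; right, share of counts on near-identical copies for the 8 genes where it exceeded 2% in every library; circles are wildtype, triangles labelled knockout, 3 libraries each. The Limk1 to Limk2 ratio is set apart to the right in the labelled knockout, and the copy shares of a gene differ by under 4 percentage points between libraries.

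Many actin genes have retrocopies in the mouse genome, which bears on how far their counts belong to 1 locus. For 11 of the 53 genes the annotation holds 21 gene models elsewhere that match their transcripts at 97% identity or more over at least 100 bases and 30% of the model. In 6 genes these models held over 10% of the joint counts in every library. The shares were 39.4% to 40.6% for Actg1, mostly on the processed pseudogene Gm12715, 37.3% to 38.1% for Capza1 on Gm3608, and 28.0% to 31.8% for Myl6. They were 24.9% to 26.2% for Tpm3 on Tpm3-rs7, 22.7% to 24.8% for Actr3, and 14.6% to 18.3% for Tmsb10, mostly on Gm9844. The treatment of reads that map to several places was not given in the sources used here. Such reads cannot be assigned to the gene or its copy here, so the levels of the 6 genes are uncertain, and the shares do not measure by how much. With the copies added, the log2 fold of Tmsb10 was -0.31 against -0.32 without, that of Actg1 -0.03 against -0.05 and that of Capza1 0.06 against 0.05. The shares of all 6 overlapped between genotypes. Separately, 21 of the tested genes share exon bases with an overlapping gene model, among them Arpc1b with Pdap1 (18.2% of its exon bases, opposite strand), Cfl1 with Snx32 (16.5%, opposite strand) and Coro1b with Ptprcap (13.5%, same strand), and the counting strand is not given.

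Other genes of the pathway were read from the same fit. Their list was chosen by function, with earlier results of these data known. Of 63 other actin and myosin regulators 62 were tested and 0 called, while 4 had an unadjusted p under 0.05 on the higher side and 10 on the lower (median log2 fold -0.07). These are 6.45% and 16.1% of the list, against 8.01% and 6.60% of all tested genes. Diaph3, the formin mDia2 that serves cytokinesis, had 27.7, 24.6 and 34.9 CPM in wildtype against 50.9, 39.5 and 48.1 in the labelled knockout, without overlap and opposite in direction to Diaph1 (fold 1.59, interval 1.28 to 1.97; edgeR, adjusted p = 0.139). The summed cell division genes were also higher in every labelled knockout library than in any wildtype library, though narrowly. Labelled knockout replicate 2 had 2990 CPM and wildtype replicate 3 2975 CPM. Singly, 9 of the 12 did not overlap, all on the higher side, where 10.9% of all tested genes stood. All 12 had an unadjusted p under 0.05 by edgeR on the higher side, against 8.01% of all tested genes. Their part in Diaph3 was not tested. Pstpip1, a partner of WASP, had 197 ± 17.9 and 147 ± 10.8 CPM. Mrtfa, the coactivator of serum response factor that senses free actin, had 100.3 ± 5.40 and 80.1 ± 2.05 CPM, and the cofilin phosphatase Ssh3 37.4 ± 5.52 and 27.6 ± 1.32 CPM. These 3 did not pass (edgeR, adjusted p = 0.151, 0.162 and 0.162), while DESeq2 called 7 genes of this list, where it called 3.22% of all genes, and limma-voom 0.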

How the data were processed

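RNA of thymocytes was made into stranded, poly(A)-selected libraries, per the labels' protocols. STAR 2.5.4b and featureCounts on GRCm38 are named in the submitters' processing notes. Which annotation release and strand setting were counted, and how reads with several matches were treated, was not given in the sources used here. Raw counts per Ensembl gene, not normalised, were deposited by the authors, with library totals of 55747682 to 82684219, and all identifiers were matched to GENCODE M21 (GRCm38).

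Groups came from the labels and columns were matched by name. Genes were filtered with filterByExpr, scaled by TMM and compared by edgeR 4.0.16 (glmQLFit with robust = TRUE, glmQLFTest, R 4.3.3) over all 18690 genes left, with no covariate and a Benjamini-Hochberg adjusted threshold of 0.05. Intervals come from the fold, the F statistic and its degrees of freedom. The code was tested on simulated data. The level per length is CPM divided by merged exon length. Near-identical copies were found with blastn 2.17.0 on GENCODE transcripts. Mice are separate, but p-values measure the spread of 3 libraries per genotype. No pair of libraries of 1 genotype agreed within counting error (chi-square divided by its degrees of freedom, 41.2 to 96.5). Floors cover counting error only.

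The members, roles and gene lists were chosen with earlier results of these data known. Values in every library are given for members with an unadjusted p under 0.05, for the highest per length and the smallest p in each role, and for 10 paralog pairs; up to 4 genes of smallest p stand for the list of other regulators. A further list is not reported here. Capg, Mylk and other members outside this rule were named after their values were seen. Alternatives were DESeq2 1.42.0, limma-voom (limma 3.58.1), other scalings and filters, a replicate block, an Xist covariate, replicates 2 and 3 only, and each library left out. The sum with near-identical copies was added after seeing the data.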

Additional observations from a re-analysis of the deposited data

How the results depend on the processing

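Of 582 values of the members under alternatives other than leaving out 1 library, 565 kept their direction and their side of the threshold. Of 318 values with 1 library left out, 285 did. Limk2, Fmnl1, Diaph1, Was, Wasf2 and Tmsb10 were fitted lower in all of these. They were picked for a small p in the same libraries, so their kept direction is no separate test. The number of genes called in all was 602 by DESeq2, 840 with no filter on low counts, 9 with the replicate block, 762 in replicates 2 and 3 only, and 8 to 29 with 1 library left out, and the cause was not tested. Members with an unadjusted p under 0.05 on the lower side numbered 3 with the replicate block (5.13% of all genes) and 1 to 5 with 1 library left out (2.45% to 8.59%). On the higher side they numbered 1 in replicates 2 and 3 only (14.2% of all genes) and 0 to 2 with 1 library left out (4.39% to 10%). Same-numbered libraries of the 2 genotypes deviated together with r = -0.107, 0.0293 and -0.115 across genes, not each best with its own number, so replicate numbers were not taken as pairs.

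Of the other actin and myosin regulators 7 were called by DESeq2 (3.22% of all genes), 3 with no filter (2.53%) and 5 in replicates 2 and 3 only (3.98%). In replicates 2 and 3 only, 1 member was called (Capg, log2 fold 0.79), the median log2 fold was 0.0146 over the members, 0.0778 over the actins, -0.16 over the WASP and WAVE activators and 0.0345 over the turnover genes. With 1 library left out the median of the activators was -0.17 to -0.0910, that of the turnover genes -0.13 to -0.00169 and that of the myosin II genes -0.15 to -0.0209.

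In replicates 2 and 3 only, 15 members that were fitted lower were fitted higher, none of them called. Their log2 folds were 0.0222 for Actb, 0.13 for Actg1, 0.0571 for Myl6, 0.0361 for Arpc1b, 0.0272 for Arpc2, 0.0838 for Arpc3, 0.0573 for Arpc4, 0.0210 for Arpc5, 0.10 for Brk1, 0.0345 for Cfl1, 0.0351 for Cap1, 0.17 for Coro1a, 0.12 for Coro1b, 0.0507 for Capzb and 0.0146 for Gsn. With near-identical copies added, chosen after seeing the data, Myl6 was at 0.0106. With 1 library left out, 17 members crossed 0 and none was called. Their log2 folds ran from -0.14 to 0.0627 for Actg1, from -0.0621 to 0.0423 for Myl6, from -0.19 to 0.0806 for Rock2, from -0.0295 to 0.10 for Arpc1a, from -0.0724 to 0.0605 for Arpc2, from -0.0612 to 0.0473 for Arpc3, from -0.0437 to 0.0392 for Arpc4, from -0.0667 to 0.0211 for Arpc5, from -0.15 to 0.0632 for Brk1, from -0.10 to 0.00246 for Cfl1, from -0.19 to 0.0641 for Coro1a, from -0.0993 to 0.0422 for Coro1b, from -0.00459 to 0.0877 for Capza1, from -0.0782 to 0.0218 for Capzb, from -0.0313 to 0.0402 for Actn4, from -0.0120 to 0.12 for Tpm3 and from -0.14 to 0.17 for Vim. The depth sets the lower limit at Mylk, the 1 tested member under 1 CPM, whose interval is the widest.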

Other observations

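The members were spread over the libraries of a genotype as follows. Of the 53 genes 28 (52.8%) were lowest in wildtype replicate 2 among the wildtype libraries, against 31.4% of all tested genes, and 8 (15.1%) were highest there, against 31.8%. In the labelled knockout 27 (50.9%) were lowest in replicate 1, against 39.0% of all tested genes, and 4 (7.55%) in replicate 2, against 25.6%. Members of 1 library share its depth and cell make-up, so these counts describe 6 libraries.

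Other short motifs were searched on both strands in the same 300-base promoters. The letters GGGCGG stood in 43 of 64 member promoters (67.2%), those of 37 of the 48 genes, against 35.7% of all promoters. TATAAA stood in 3 (4.69%), those of Hcls1, Myh9 and Vim, against 13.6%, and CCAAT in 18 (28.1%) against 37.4%. Motifs can overlap one another, and a gene can have several promoters in the table. The promoters of all genes were not matched to the members for level of expression, here or for the CArG box.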
